A study of Mus musculus with 2 samples.

Results

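Gasdermins are a small family of pore-forming proteins, and the 8 gasdermin genes considered here were *Gsdma*, *Gsdma2*, *Gsdma3*, *Gsdmc*, *Gsdmc2*, *Gsdmc3*, *Gsdmc4* and *Gsdmd*. Members were the probes, other than control probes, that the array design names for one of these genes. The rule found 9 probes on 18 spots for 7 of the 8 genes, among 30133 named genes on the array. No probe carried the name *Gsdmc2*, which is measured here only through a probe that it shares with *Gsdmc3*. Skin RNA of newborn mice was measured with a 1-colour Agilent oligonucleotide array, in which each spot holds a short DNA probe and its brightness after labelling with the dye Cy3 follows the amount of matching RNA. The *Pnpla1*+/+ (wild-type) mice and the *Pnpla1*-/- (knockout) mice were all on the strain background C57BL/6N and at age P0, and RNA of 6 animals was pooled for each genotype. According to the methods, the knockout mice carried the knockout-first allele tm1a(KOMP)Wtsi, made in embryonic stem cells of C57BL/6N origin, from which the IRES-LacZ and Neo cassettes were later excised, and the controls were wild-type littermates. The comparison asks which transcripts differ in newborn skin that lacks PNPLA1, an enzyme needed to make the acylceramides of the epidermal water barrier. The samples are labelled skin while the design description also speaks of epidermis, and bulk markers of both dermis and epidermis were bright, as given below.

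With 1 array per genotype there was no replicate, so no test between genotypes was possible, and each difference describes 2 pools. Both arrays were on 1 slide and had the same scan time. Of 43020 spots other than controls, 71.7% were well above background on the *Pnpla1*+/+ array and 73.3% on the *Pnpla1*-/- array, and 0 were saturated. Each intensity was divided by the 75th percentile of its array, 2108 for *Pnpla1*+/+ and 1734 for *Pnpla1*-/-, and a difference is the log2 of the scaled *Pnpla1*-/- value minus the log2 of the scaled *Pnpla1*+/+ value. A gene was taken as higher or lower when it differed by at least 2-fold, that is by at least 1 on this scale. Probes printed repeatedly (314 probes) gave a technical SD of 0.04 for such a difference, as their median, which covers the spots and not the mice. *Pnpla1* itself gave an intensity of 579 on the *Pnpla1*+/+ array and 114 on the *Pnpla1*-/- array, 4.19-fold lower after scaling, in the direction of the labels. A signal above background remained at its probe in *Pnpla1*-/- skin. Whether this probe, at chr17:29026908-29026967, lies in the part of the gene that the allele disrupts was not established here.

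A gasdermin is made as an inactive protein whose carboxy-terminal domain holds back its amino-terminal domain. When a protease cuts between them, the released amino-terminal part inserts into the plasma membrane and forms a pore, through which interleukin-1 family cytokines can leave the cell and which can end in lytic death (pyroptosis). Mice carry several tandem copies of *Gsdma*, genes of the skin and upper digestive tract, and of *Gsdmc*, best known from keratinocytes and the intestinal epithelium. *Gsdmd* is a single gene, the main target of the inflammatory caspases. Mutations of *Gsdma3* that release its pore-forming domain are known to cause hair loss and thickened epidermis in mice.

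The copies of *Gsdmc* resemble each other closely enough that their probes may not tell them apart, and the probe stretches that bear on this are shown first. All are 30-base stretches of 60-base probes, read from the array design, written 5′ to 3′ as the transcript runs, on the minus strand of mm9. The *Gsdmc* stretch is at chr15:63608193-63608222 and the stretch of the probe specific by name to *Gsdmc3* is at chr15:63689827-63689856, and the bases that differ between them are in capitals. The last stretch, at chr15:63689337-63689366, opens the probe whose listed transcripts belong to both *Gsdmc2* and *Gsdmc3*.
Gsdmc: caagcccagcctcAgTcctggatacatttg
Gsdmc3: caagcccagcctcCgAcctggatacatttg
Gsdmc2 and Gsdmc3: ccttaccacgtctaggaaacaggatgttgt
The first pair of stretches shared 28 of 30 bases. Over the 41 bases in which these probes can be laid side by side, 36 were identical (87.8%), while the next most alike pair of gasdermin probes matched at 56.7% of aligned bases. The separate levels of *Gsdmc*, *Gsdmc2* and *Gsdmc3* are therefore uncertain, since transcripts of one copy may add to the signal of another copy's probe. Probes were compared only with each other, and not with the transcripts of other copies. A low match between probes therefore does not show that a probe is specific, and that of *Gsdmc4* was not tested for this. None of the 9 probe sequences was carried by a probe of another name.

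Transcripts of the *Gsdmc* cluster were more abundant on the *Pnpla1*-/- array, with smaller differences for the other gasdermins. *Gsdmc* rose by 3.04-fold and *Gsdmc4* by 3.26-fold. The brightest probe of *Gsdmc3*, which it shares with *Gsdmc2*, rose by 3.15-fold, and the dimmer probe named for *Gsdmc3* alone by 2.64-fold. *Gsdma*, *Gsdma3* and *Gsdmd* had ratios of 1.81, 1.99 and 1.85, under the 2-fold threshold, and *Gsdma2* had a ratio of 1.14. Thus 3 of the 7 measured genes were at least 2-fold higher (42.9%) and 0 were lower by that much. Among all 22374 genes for which a difference could be given, the share past 2-fold was 6.70% upward, 3.04% downward and 9.74% in either direction. The median difference of the 7 genes was 0.99 on the log2 scale, against 0.00 over all genes, whose quartiles were -0.26 and 0.32. All 7 differences were above 0, although that of *Gsdma2* turned to -0.09 without scaling and to -0.24 when the arrays were centred on spike-in probes, settings that moved the median of all genes by -0.28 and -0.44. Of all genes past 2-fold, 68.8% were higher, a share that was 41.2% without scaling and 27.4% with spike-in centring. In bulk skin RNA, a larger number of cells that express a gene and more RNA per cell cannot be told apart.

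**Figure D1:**
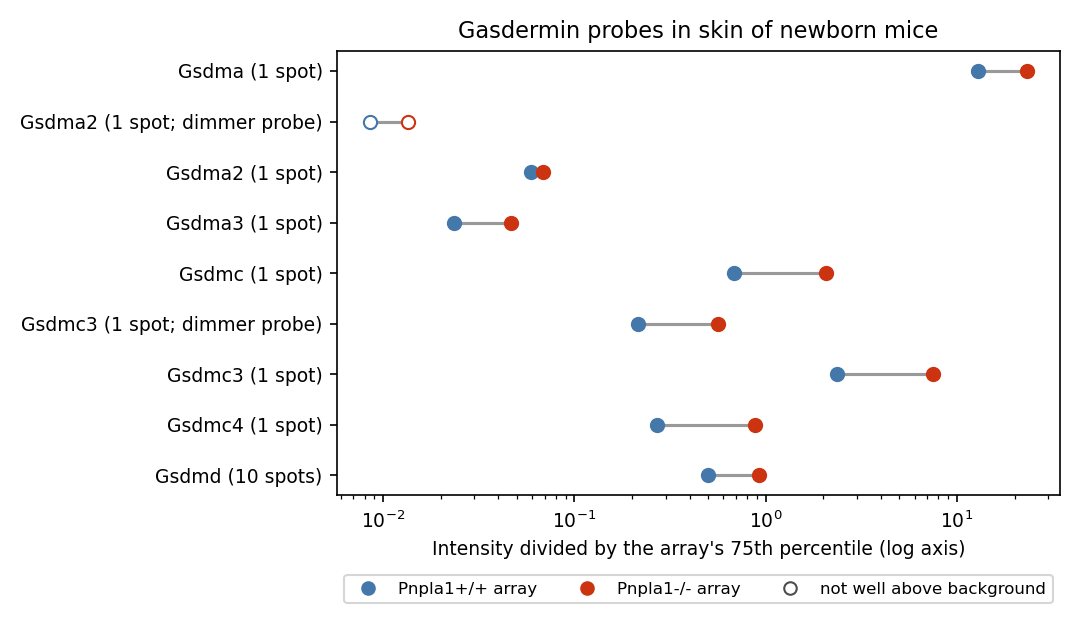
Scaled intensity (intensity divided by the array's 75th percentile, log axis) of the 9 gasdermin probes on the *Pnpla1*+/+ array (blue) and the *Pnpla1*-/- array (red), with the mean of 10 spots for *Gsdmd* and 1 spot for each other probe, and open circles where the spot was not well above background. The red point lies to the right of the blue one for each probe, and the gap is widest for the *Gsdmc* probes; positions of different probes are not to be compared with each other.

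Of the *Gsdma* copies, which lie together on chromosome 11, none reached 2-fold. *Gsdma*, a gene of differentiating keratinocytes, had 1 probe, at chr11:98537914-98537973 on the plus strand of mm9. Its intensity was 27078 ± 2708 on the *Pnpla1*+/+ array and 40244 ± 4024 on the *Pnpla1*-/- array, where the error is the one the scanner software assigns to a single spot. After scaling, the difference was 0.85 on the log2 scale, above that of 91.6% of all genes with a difference, and it was 0.57 without scaling and 0.42 with spike-in centring. Probes of like brightness that were spotted repeatedly had a median technical SD of 0.03 (17 probes), so the gap between the 2 arrays was far wider than the error of the spots, with nothing known of the error between mice.

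*Gsdma3*, the copy whose mutations give the hair and epidermal phenotypes named above, was dim. Its probe at chr11:98499344-98499403 gave 49.4 ± 7.71 for *Pnpla1*+/+ and 80.9 ± 9.71 for *Pnpla1*-/- skin. The difference was 0.99, just under the 2-fold threshold, and repeated probes of like brightness had a technical SD of 0.17 (46 probes), so on which side of the threshold it lies is not settled by this spot, and with spike-in centring it was 0.56. The third copy, *Gsdma2*, had 2 probes. The brighter, at chr11:98519203-98519262, gave 126 ± 13.7 for *Pnpla1*+/+ and 118 ± 12.8 for *Pnpla1*-/- skin, a difference of 0.19 beside a technical SD of 0.11 (50 probes). The other, at chr11:98512243-98512302, read 18.0 and 23.5, on both arrays too close to background to give a difference. The *Gsdma* copies therefore lay between 0.19 and 0.99, with a median of 0.85.

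The *Gsdmc* copies, on chromosome 15, gave the widest differences of the family. *Gsdmc* read 1439 ± 144 for *Pnpla1*+/+ and 3595 ± 360 for *Pnpla1*-/- skin, through the probe at chr15:63608169-63608228. Its difference was 1.60, above that of 97.0% of genes, with a technical SD of 0.03 for probes of like brightness (89 probes). *Gsdmc4*, the copy at chr15:63723278-63723337, read 571 ± 57.4 and 1531 ± 153, a difference of 1.71. The values of the *Pnpla1*-/- array were thus well clear of those of the *Pnpla1*+/+ array relative to the error of a spot.

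For *Gsdmc3*, both probes were higher on the *Pnpla1*-/- array. The probe shared with *Gsdmc2*, at chr15:63689307-63689366, read 4992 ± 499 for *Pnpla1*+/+ and 12932 ± 1293 for *Pnpla1*-/- skin, a difference of 1.66. The dimmer probe, named for *Gsdmc3* alone, at chr15:63689822-63689881, read 452 ± 45.6 and 980 ± 98.2, a difference of 1.40 (2.64-fold). This is the probe that resembles the *Gsdmc* probe in the stretch printed above. No value can be given for *Gsdmc2* apart from *Gsdmc3*. Over the 4 probes of the *Gsdmc* copies the differences ran from 1.40 to 1.71.

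*Gsdmd*, whose product opens the membrane in inflammasome-driven pyroptosis, was the only gasdermin with repeated spots. Its probe at chr15:75697536-75697595, on the plus strand, was printed 10 times on each array. The lowest, median and highest intensities were 1012, 1049 and 1102 on the *Pnpla1*+/+ array, and 1520, 1608 and 1712 on the *Pnpla1*-/- array. The spots of the arrays did not overlap. Spot by spot the difference ran from 0.84 to 0.92, with a mean of 0.89 ± 0.02 (SD of 10 spots, a technical error), which is 1.85-fold and under the 2-fold threshold in all 10 pairs of spots. The scaling mattered more than the spots, since this difference was 0.61 without scaling and 0.45 with spike-in centring.

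**Figure D2:**
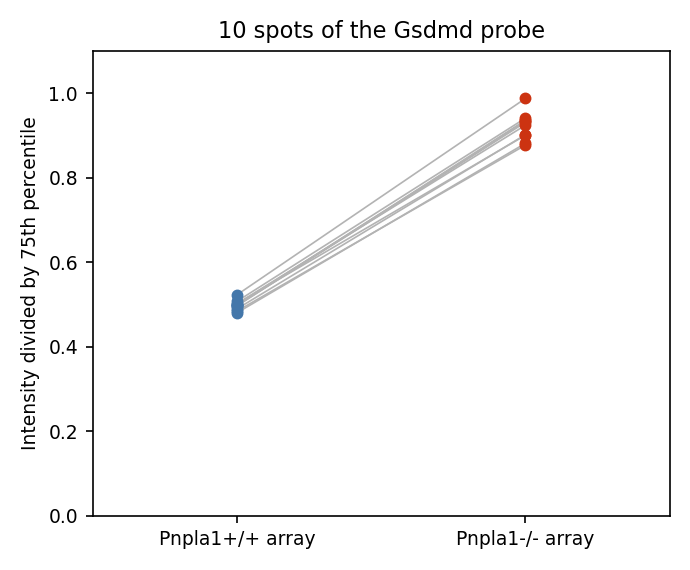
Intensity divided by the array's 75th percentile (linear axis from 0) for each of the 10 spots of the *Gsdmd* probe on the *Pnpla1*+/+ array (blue) and the *Pnpla1*-/- array (red), with lines joining spots at the same place on both arrays. The spots fall into separate bands whose mean log2 difference is 0.89, and they are repeated measurements of 1 RNA pool each.

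**Figure D3:**
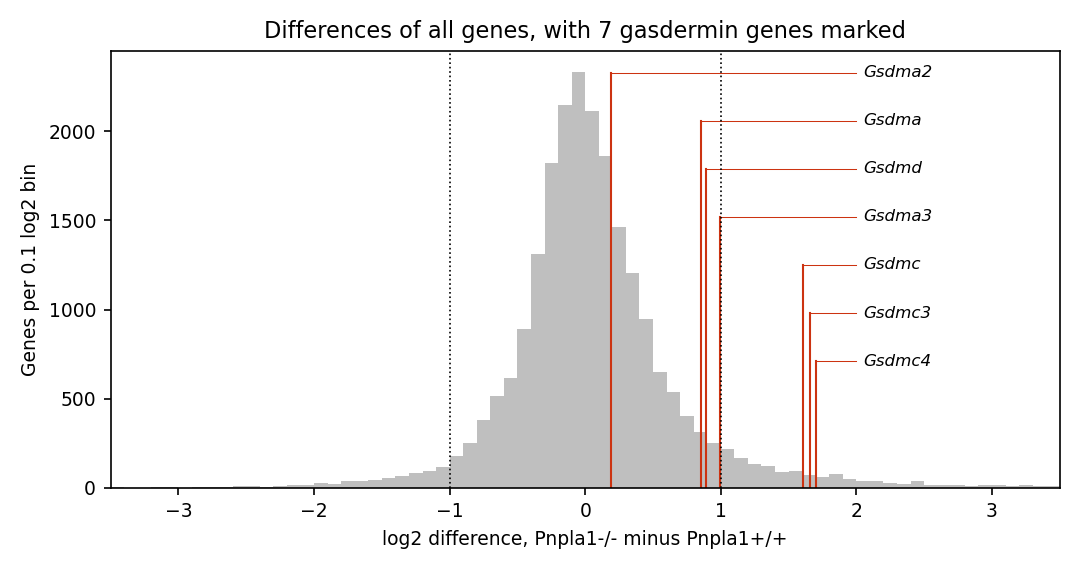
Histogram of the log2 difference (*Pnpla1*-/- minus *Pnpla1*+/+, horizontal axis cut at its outer ends) of all 22374 genes with a difference, in bins of 0.1, with the 7 measured gasdermin genes as red lines and the 2-fold threshold as dotted lines. *Gsdmc*, *Gsdmc3* and *Gsdmc4* lie beyond the upper threshold, *Gsdma3*, *Gsdmd* and *Gsdma* just inside it, and *Gsdma2* near the centre.

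The 2 family members outside the rule were within 2-fold. *Gsdme*, another pore-forming member, read 348 for *Pnpla1*+/+ and 380 for *Pnpla1*-/- skin, a difference of 0.41, and its second probe stayed near background on both arrays. *Pjvk*, encoding pejvakin, a distant relative known from hearing, read 53.7 and 28.9, a difference of -0.61. The *Gsdmc* cluster also holds gasdermin-like genes with other names, which were looked at after their values were seen. Of these *Gsdmcl2* read 28.9 and 76.4, a difference of 1.69, while the probes of *Gsdmcl1* and *Gsdmcl-ps* stayed near background on both arrays.

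Since the *Gsdma* and *Gsdmc* copies stand in clusters, the 5 annotated genes with a probe on each side of the clusters and of *Gsdmd* were examined. Of these 30 genes, 25 had a difference, with a median of 0.09, and past 2-fold there was 1 higher gene and 1 lower gene. The share of higher genes was 4%, beside 6.70% over all genes, of which 3.04% were lower. The higher one was *Csf3*, encoding granulocyte colony-stimulating factor, beside the *Gsdma* cluster. It read 5.79 on the *Pnpla1*+/+ array, not well above background, and 123 on the *Pnpla1*-/- array, so it has only a bound, at least 6.24-fold higher, taken against the lowest signal called well above background on the dim array. The lower one was *Rhpn1*, near *Gsdmd*, which read 68.0 and 25.3, a difference of -1.14. Neither is a gasdermin, and *Grb7*, encoding an adaptor of receptor tyrosine kinases and the next in size, differed by 0.77.

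The measured *Gsdmc* copies stood apart from the genes that flank their cluster. The 6 flanking genes with a difference lay between -0.64 and 0.55, with *Myc*, encoding a growth-promoting transcription factor, at 0.37. The highest of them was *Asap1*, whose probe the array design places on X_random and not on chromosome 15, and without it the highest was *Myc*. Another 4 flanking genes were below background on both arrays. Inside the cluster the 4 measured genes, *Gsdmcl2* included and each by its brightest probe, lay between 1.60 and 1.71. The probe named for *Gsdmc3* alone differed by 1.40. Signals of the *Gsdmc* copies may mix, so their values need not be separate. *Gsdmcl2* was dim, at 28.9 ± 5.85 on the *Pnpla1*+/+ array, with a technical SD of 0.17 for probes of like brightness. No flanking gene of this cluster reached 2-fold in either direction. With so few genes, that count cannot be told from the share over all genes, 9.74%.

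**Figure D4:**
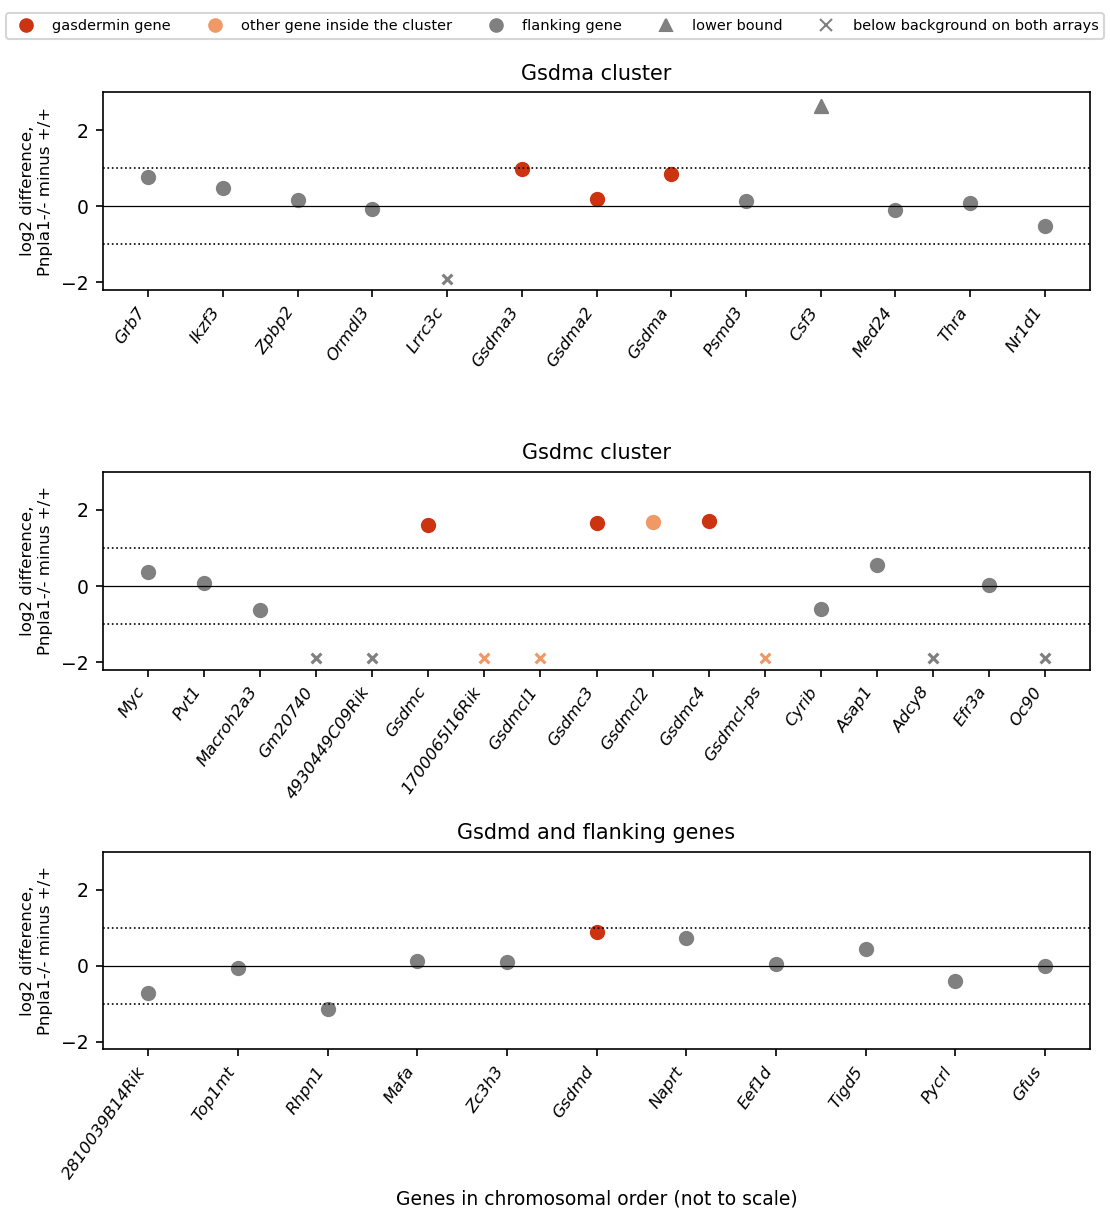
Log2 difference (*Pnpla1*-/- minus *Pnpla1*+/+) of gasdermin genes (red), other genes inside a cluster (orange) and the 5 flanking genes with a probe on each side (grey), in chromosomal order and not to scale, with triangles for lower bounds, crosses at the foot for genes below background on both arrays and dotted lines at 2-fold. By their brightest probes the *Gsdmc* copies lie between 1.60 and 1.71, above flanking genes between -0.64 and 0.55. Signals of these copies may mix. At the *Gsdma* cluster the highest point is *Csf3*. The design places the probes of *Asap1* and *Zc3h3* on other chromosomes than the gene table does.

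Promoter sequences (250 bases before to 50 after the start, RefSeq, GRCm38.p6) were at hand for 2 of the members, *Gsdma3* and *Gsdmc3*. They were searched on both strands for letters bound by factors of inflammation and differentiation, and for the letters of the TATA box. The AP-1 letters TGANTCA (in 7.81% of 32851 promoters), the STAT letters TTCNNNGAA (8.30%), a STAT motif with a wider spacer (6.95%) and the TATA letters TATAAA (13.6%) were not in either window. The interferon regulatory factor motif (3.44%) was found once, in *Gsdma3*, at position -233 from the start. A match describes the letters only, and no match says only that these letters are not in this window.

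The genes that act before and after gasdermins were taken from lists of 51 genes, including the 2 gasdermins outside the rule, and each of them had a difference or a bound. Intensities in parentheses are as deposited, *Pnpla1*+/+ first, while differences are after scaling. Past 2-fold, 20 were higher (39.2%) and 2 were lower, with a median of 0.53, beside 6.70% and 3.04% over all genes. The lists were chosen with results of these arrays known, so these shares are a description. Bounds entered the medians at their bound, and with spike-in centring 16 genes were higher and 4 lower.

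Inflammasomes sense danger in the cytosol and activate caspase-1. Of 14 sensors and adaptors, 6 were higher and 1 was lower, with a median of 0.61. That median was 0.24 over probes measured on both arrays alone, 0.33 without scaling and 0.18 with spike-in centring. Both *Naip2* and *Naip6*, which encode receptors of the NAIP family that detects bacterial flagellin and secretion needles, rose by 1.99 (intensity 160 to 523) and 1.73 (98.9 to 270) on the log2 scale. *Aim2*, the sensor of cytosolic DNA, rose by 1.46 (70.6 to 160). These were dim on the *Pnpla1*+/+ array but well above background on both.

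The other higher sensors rest on a bound, since they were not well above background on the *Pnpla1*+/+ array. *Mefv*, encoding pyrin, read 23.0 and 197 and was at least 10.02-fold higher, with a second probe at 1.38 on the log2 scale. *Nlrc4*, which assembles with the NAIPs, read 26.1 and 52.6 and was at least 2.45-fold higher. *Nlrp1b*, a sensor of bacterial proteases, read 20.8 and 55.2 and was at least 2.81-fold higher, but another of its probes differed by 0.21. In contrast, *Nlrp10*, an NLR gene expressed in epidermis, fell by 1.45 on the log2 scale (1562 to 469), and *Nlrp3* differed by -0.83. The adaptor *Pycard* (ASC), through which sensors recruit caspase-1, differed by 0.86 (14206 to 21254), short of 2-fold.

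Among the 9 caspases, 2 were higher and none was lower, with a median of 0.34 that came to 0.06 without scaling and turned to -0.09 with spike-in centring. *Casp4*, which in mice encodes caspase-11, the sensor of lipopolysaccharide that cuts gasdermin D, rose by 1.76 on the log2 scale (1925 to 5359). *Casp12*, its neighbour in the inflammatory caspase cluster, rose by 1.16 (74.9 to 138). Just short of 2-fold was *Casp1*, whose product also cuts gasdermin D, at 0.99 (1487 to 2434). The other caspases were within 2-fold, and *Casp8*, reported to cut gasdermin C, differed by 0.34 and *Casp14* by 0.74.

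Of 4 other proteases known to cut gasdermins, both granzymes were higher and both neutrophil proteases were within 2-fold, with a median of 1.05 that came to 0.05 when the bound was left out. *Gzma*, encoding granzyme A, rose by 2.65 on the log2 scale (161 to 830). *Gzmb*, encoding granzyme B, read 15.1, not well above background, and 81.2, and was at least 4.13-fold higher. *Elane*, encoding neutrophil elastase, differed by 0.05 and *Ctsg*, encoding cathepsin G, by -0.06.

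The interleukin-1 family, which includes the cargo of gasdermin pores, had 6 of 8 genes higher, 1 lower and a median of 1.54. By the brightest probe of each gene this was the highest median of the pathway lists. With the mean over probes it was 1.54 again, below the 1.61 of the transcription factor and guanylate-binding protein list. *Il1a* and *Il1b*, encoding the agonists of the interleukin-1 receptor, rose by 3.76 (101 to 1127) and 2.84 (144 to 780) on the log2 scale. *Il33*, an epithelial alarmin, rose by 2.92 (247 to 1530). The antagonist gene *Il1rn* rose by 1.89 (214 to 651). *Il18r1*, counted as higher, rose by 1.12, but by 0.66 through its other probe, which is under 2-fold. *Il18*, the other cytokine that leaves through gasdermin D pores, went the other way and fell by 1.57 (7762 to 2147), while *Il18bp*, which encodes its decoy, rose by 1.20 (245 to 462). Cytokine transcripts of this list thus went in both directions.

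Upstream of the family, IRF1 and IRF2 are known activators of gasdermin and caspase genes, and guanylate-binding proteins open bacteria to caspase-11. Of these 8 transcription factor and guanylate-binding protein genes, 4 were higher and none was lower, with a median of 1.18 (0.75 with spike-in centring). The higher ones were *Gbp2* (difference 2.85, 670 to 3975), *Gbp3* (2.37, 1232 to 5247), *Irf1* (2.02, 2100 to 7013) and *Irf8* (1.65, 761 to 1970), the latter encoding a factor of myeloid cells. *Irf2* differed by 0.53. The probes of *Gbp5* did not agree, since the brighter one differed by -0.11 and the other by 3.24. Of the 6 genes of membrane rupture and repair, the steps after the pore, none reached 2-fold, and *Ninj1*, which encodes the protein that ruptures the membrane, differed by 0.02.

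**Figure D5:**
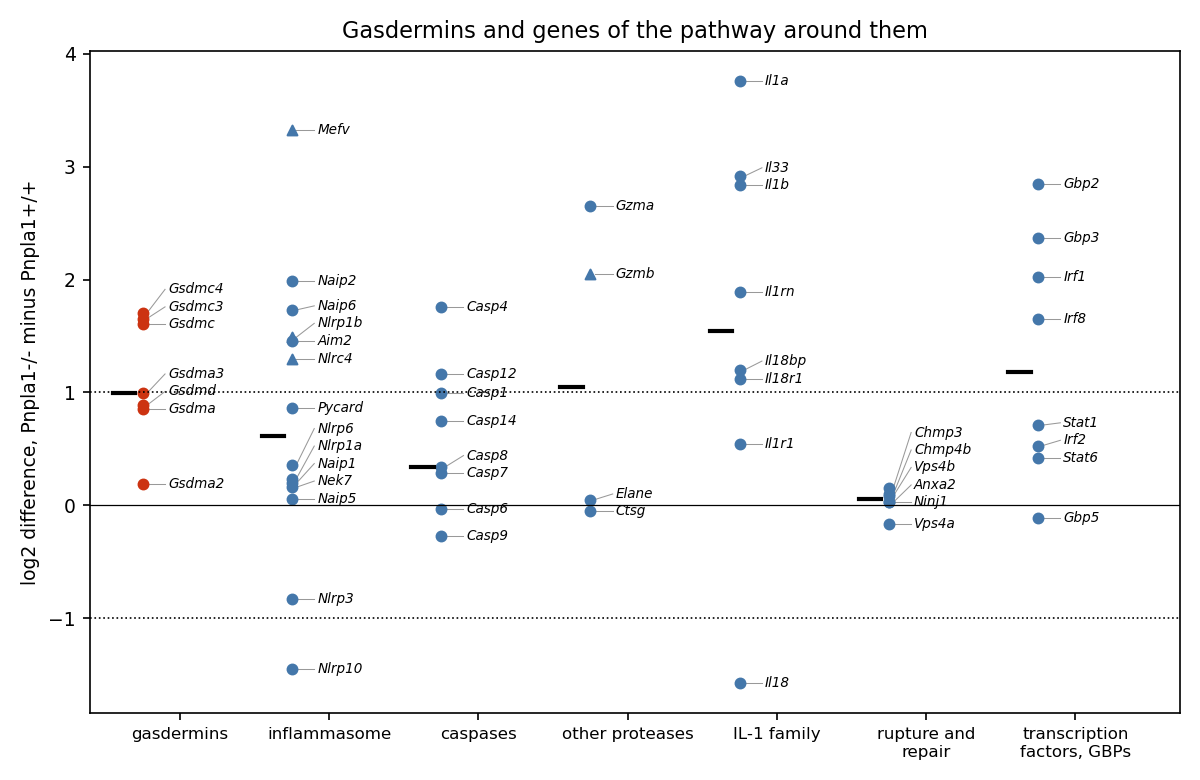
Log2 difference (*Pnpla1*-/- minus *Pnpla1*+/+) of the 7 measured gasdermin genes (red) and of the genes around them in the pathway (blue), 1 point per reported gene by its brightest probe, triangles for lower bounds, short black bars for list medians and dotted lines at 2-fold. Leaving aside the 2 gasdermins outside the rule (median -0.10), rupture and repair has the lowest list median, 0.05. That median was above 0 in 7 of 12 alternative settings, and -0.38 with spike-in centring. Of the lists drawn, the interleukin-1 family has the highest median, 1.54, with the gasdermins at 0.99. The lowest points are *Il18* at -1.57 and *Nlrp10* at -1.45.

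Skin holds several cell types that express gasdermins, so marker lists of these types were read beside the family, and their part in the gasdermin differences was not tested. Of 10 granular layer markers, 1 was higher and 1 was lower, with a median of 0.14 and a summed scaled intensity of 366 and 380, *Lor* being the brightest. *Flg2*, encoding a filaggrin-type protein, fell by 6.41 on the log2 scale and *Klk7*, encoding a protease of corneocyte shedding, rose by 1.05. The differences of the other 8 markers were within 2-fold.

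The 6 basal keratinocyte markers had a median of 0.06 and sums of 191 and 222, with *Krt5* the brightest. Of these *Krt15* fell by 1.67 and *Krt14* rose by 1.35, and *Col17a1*, encoding a hemidesmosome collagen, differed by -0.29. Of 12 hair follicle markers, 6 were lower and none was higher, with a median of -0.95, and their summed scaled intensity was 110 for *Pnpla1*+/+ and 58.7 for *Pnpla1*-/- skin. The brightest was *Krt71*, an inner root sheath keratin gene, and the widest differences were those of *Krt72* (-3.41) and *Krt28* (-1.23), also of the inner root sheath, and of *Krt35* (-1.33), a hair shaft keratin gene. Neither the sebaceous gland list (7 markers, median 0.15, sums 13.0 and 15.6, *Mgst1* the brightest) nor the fibroblast list (6 markers, median -0.07, sums 341 and 323, *Col1a2* the brightest) held a gene past 2-fold.

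Several markers of blood cells were also higher on the *Pnpla1*-/- array. Of 8 leukocyte markers, 7 had a difference, 3 were higher and none was lower, with a median of 0.84 and sums of 15.6 and 22.9, *Csf1r* being the brightest. The widest were *Lyz2*, encoding lysozyme (2.35), *Ptprc*, encoding CD45 (1.51), and *Adgre1*, encoding F4/80 (1.24). *Cd207*, which marks Langerhans cells, was below background on both arrays, and the probes of *Itgam* ran from -0.03 to 2.84. Of 8 neutrophil markers, 5 were higher and none was lower, with a median of 3.34. The chemokine receptor gene *Cxcr2* read 15.98, not well above background, and 1177, and was at least 59.8-fold higher. *Mpo*, encoding myeloperoxidase, differed by 4.35, or by 1.87 through its other probe, and *Retnlg* by 3.48. The sums of this list were 44.4 and 48.9 and were carried by *Csf3r*, whose difference was 0.04, and *Ly6g* differed by 0.42.

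*Gsdmc* genes are also known from the intestine, so its markers were read as well. Of 7 intestinal markers, 5 had a difference or a bound, with a median of -0.91 and sums of 1.80 and 0.93. *Cdx1* and *Cdx2*, the transcription factors that define intestinal epithelium, were below background on both arrays. The brightest gene of this list, *Lgr5*, is also a hair follicle stem cell gene and differed by -0.99, and *Krt20* fell by 1.12. *Slc26a3*, an ion exchanger gene, was at least 1.88-fold lower by its brighter probe, while its other probe gave -0.55 on the log2 scale. *Muc2*, encoding a mucin of goblet cells, read 19.3, not well above background, and 33.9, and was at least 1.72-fold higher. Both bounds are under 2-fold, and on which side of 2-fold the differences themselves lie is not known.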

How the data were processed

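Skin RNA of newborn *Pnpla1*+/+ and *Pnpla1*-/- mice (6 animals pooled per genotype, 1 array each) had been labelled with Cy3 and hybridized by the authors to Agilent mouse arrays. The submitters' processing notes name Agilent Feature Extraction 11.5.1.1. The deposited scanner files hold the linear intensity of every spot, already background-subtracted, with its error, flags and probe coordinates on mm9. The authors also deposited a table of ratios, each the intensity divided by 1 factor per array (2109 and 1734). Their methods speak of global normalization in GeneSpring without naming the statistic. These factors nearly equal the 75th percentiles used here (2108 and 1734), so the deposited ratios are almost the same scaling.

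Intensities were divided by the 75th percentile over spots other than controls and taken to log2 (Python 3.11.15, pandas 2.3.3, numpy 2.4.6). The 193 spots with an outlier flag were left out, log2 values of repeated spots were averaged, and the brightest probe stood for its gene. Where only 1 array was well above background the gene has a bound, which compares its brighter signal with the higher of its own dim signal and the lowest signal among probes well above background on the other array. Of the named genes, 20680 were measured on both arrays, 1694 gave a bound and 7743 were below background on both. Probe names were updated through a RefSeq table of GRCm38.p6, used only for names and gene order (27499 probes by accession, 3553 by symbol, 404 by an older symbol, 7973 kept). Without an annotation of mm9, whether a probe lies in a coding or an untranslated exon was not determined.

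The number of arrays limits the precision, and no test was run. The members, marker and pathway lists were chosen with earlier results of these data known. Genes named are every gasdermin member and probe, up to 6 of each pathway list by size among those past 2-fold or with a bound, and up to 3 of each marker list and of the neighbours by size of difference; the other genes named were chosen after their values were seen. Settings tried in place of this scaling were none, the median, 8 E1A spike-in probes, and a 75th percentile that left out probes near background. In limma 3.58.1 (R 4.3.3) quantile normalization, cyclic loess and normexp with an offset of 50 were tried. The others were the deposited ratios, the mean over probes, no filter or a strict filter on dim probes, flagged spots kept, and thresholds of 1.5-fold and 3-fold. The computation was tested on simulated data. A gene of the pathway lists is counted but not reported or drawn here. Identity between proteins was not computed, and no slide term could be fitted because both arrays were on 1 slide.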

Additional observations from a re-analysis of the deposited data

How the results depend on the processing

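Directions and calls of the gasdermin genes changed little with the processing. In 12 alternatives 6 of the 7 genes kept their direction, and *Gsdma2* turned below 0 in 2 of them. *Gsdmc*, *Gsdmc3* (by the probe shared with *Gsdmc2*) and *Gsdmc4* stayed at least 2-fold higher in all 12, with their lowest differences (1.17, 1.22 and 1.27) under spike-in centring, where the dimmer *Gsdmc3* probe came to 0.97. The count of 3 genes held in 13 of 14 alternatives and was 6 at a threshold of 1.5-fold. Several alternatives could hardly change a member. No member spot carried an outlier flag, and each gene's brightest probe was measured on both arrays. Keeping flagged spots or changing the filter on dim probes therefore left the value of every member gene as it was. The mean over probes could move only *Gsdmc3*, and the deposited ratios use nearly the same factors as the main scaling. The median difference of the gasdermin genes was 0.71 without scaling, 0.85 with normexp, 0.88 with quantile normalization, 0.93 with scaling by the median and 0.56 with spike-in centring. *Pnpla1* came to -2.35, -1.51, -2.14, -2.14 and -2.50 in the same order.

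Of all genes, 2180 passed 2-fold. This count was 1281 with normexp, 4146 with no filter on dim probes (which tested 30133 genes and moved the median of all genes by 0.10), 5184 at 1.5-fold and 912 at 3-fold. The split between higher and lower genes, 1499 and 681, was 998 and 1424 without scaling and 827 and 2187 with spike-in centring. Pathway genes at least 2-fold lower numbered 4 with spike-in centring, and 4 and 0 passed thresholds of 1.5-fold and 3-fold. Values of single gasdermin genes and probes and medians of pathway lists were compared under these settings. Of these, 146 stayed within the technical SD of a difference and 118 moved by more, and none past 2-fold changed sign. The 146 include settings that could not change a member's value. Apart from the thresholds and filters, whose effect follows from their construction, the cause was not tested. No paired analysis was possible because each genotype had 1 array. Low signal limits the dim probes, and among the 9 probes of the members the *Gsdma2* probe that was not well above background most of all.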
